A study of Bos taurus with 64 samples.

Results

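Of the 59 growing steers whose skeletal muscle microRNAs (miRNAs) were sequenced, 5 gave a library on both diets of the trial, recognised by an animal number that occurred once in each feeding phase. These steers supplied 10 of the 64 libraries, 5 on the high-concentrate diet and 5 on zero-grazed grass, and each steer served as its own control. Steers 860 and 1484 were Charolais, a beef breed, in the high class of residual feed intake (RFI) on both diets. Steer 310 was a low-RFI Charolais on both diets, and steer 307 was a Charolais labelled low RFI on concentrate and high RFI on grass. Steer 1639 was a high-RFI Holstein-Friesian, a dairy breed, on both diets. RFI is the feed eaten beyond or below what size and growth predict, so a high-RFI animal is less efficient. Every steer ate cut perennial ryegrass for 70 days, then, after 14 days of acclimatisation, barley-based concentrate with limited silage for another 70 days. The concentrate library is therefore also the later one from each steer, so diet, age and phase cannot be told apart. The sources used here name neither the age of the steers, nor the muscle sampled, nor any batch of library preparation. The other 54 libraries came from steers sampled once, 27 on each diet, and gave a second estimate of the diet difference from separate animals. They were 24 Charolais and 30 Holstein-Friesian steers of both RFI classes, so their mix of breeds differs from that of the paired steers, of which 4 of 5 were Charolais.

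miRNAs are short RNAs that bind messenger RNAs and lower their translation or stability. Muscle fibres make a set of them in abundance, the myomiRs, which include miR-1, the miR-133 and miR-208 families, miR-206, miR-486 and miR-499. The DLK1-DIO3 locus is an imprinted region in which the maternal chromosome expresses the long RNA MEG3 and a long array of miRNAs, while the paternal chromosome expresses DLK1. In sheep a mutation in this locus, callipyge, causes muscle overgrowth after birth, and in mice its miRNAs are abundant in fetal tissues. Another cluster lies on the X chromosome and is called the miR-424 cluster here. It holds miR-450a, miR-450b and miR-542 beside miR-424, a relative of miR-15 and miR-16 that restrains the cell cycle.

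The 10 libraries held between 6226359 and 12245101 counts, against 4795936 to 12245101 (median 8143018) over all 64. Each of the 10 contained 436 to 595 miRNAs with a count. Levels are given below as CPM, the counts per 1000000 of a library's TMM-scaled total, so that the most abundant miRNA can pass that number. Values in a row are in the order of steers 307, 310, 860, 1484 and 1639. Differences are log2 of concentrate over grass, so negative values are lower on concentrate. All 8 myomiRs, the markers of the labelled tissue, were detected and summed to 191214 to 260206 CPM on concentrate and 148949 to 237022 CPM on grass. The epithelial markers summed to at most 2.26 CPM on concentrate and 2.46 CPM on grass, with miR-200b and miR-429 at 0 in all 10 libraries. The nerve markers summed to at most 3.0 CPM on concentrate and 3.71 CPM on grass.

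A pair of grass libraries stood apart from the rest in some values, and was picked after these values were seen. The grass library of steer 1639 had the largest scaling factor of all 64 libraries, at 2.43, against 0.511 to 1.88 in the 62 libraries that remain when the grass libraries of steers 1484 and 1639 are set aside. In that same scaling over 64 libraries, miR-19b was at 14.6 CPM in the grass library of steer 1639 and 39.4 CPM in that of steer 1484, against 56.1 to 1070 CPM in the other 62. miR-145 was at 114 and 194 CPM in these libraries, against 238 to 2023 CPM in the other 62. Both libraries thus ranked lowest of all 64 for each miRNA. The calls and several of the list medians are given both with and without steers 1484 and 1639.

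miR-10b, which is encoded within the HOXD gene cluster, took the largest share of counts in each of the 10 libraries. It made up 65.1, 66.0, 57.6, 67.7 and 63.4% of counts on concentrate, against 55.5, 61.0, 52.3, 41.4 and 19.3% on grass. The share was higher on concentrate in 5 of 5 steers, and averaged 64.0% ± 3.90 on concentrate and 45.9% ± 16.5 on grass (SD, n = 5 each). By counting error alone, the lowest share has a 95% Wilson interval of 19.32 to 19.36% and the highest one of 67.68 to 67.75%. The mean within-steer difference was 18.1 percentage points ± 16.9 (SD, n = 5), and the 2-sided exact sign-flip test gave p = 0.0625, the smallest that 5 pairs allow. The TMM factor moved the other way in 5 of 5 steers, averaging 0.806 ± 0.123 on concentrate and 1.33 ± 0.564 on grass (exact sign-flip p = 0.0625). Every difference below depends on these factors. Total counts, at 7516532 ± 919885 on concentrate and 8705818 ± 2127280 on grass, gave an exact sign-flip p of 0.3125.

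Within steers, few miRNAs passed the test and all that passed were lower on concentrate. Of 275 miRNAs tested with edgeR's quasi-likelihood model, with the steer as a block, 2 were called lower at a Benjamini-Hochberg adjusted p under 0.05 (0.727% of those tested) and 0 were called higher (0%). Without adjustment 43 passed a p of 0.05, of which 28 were lower and 15 higher on concentrate. DESeq2 called 5 lower and 5 higher, and limma-voom called the same 2 as edgeR and 0 higher. Both calls remained without steer 307, whose RFI label differs between the diets. The called miRNAs were miR-381, a member of the DLK1-DIO3 cluster, and miR-2285av, of the large ruminant family miR-2284 and miR-2285.

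miR-381 stood at 32.1, 56.8, 45.8, 49.8 and 43.6 CPM on concentrate, against 96.3, 94.4, 90.8, 105 and 148 CPM on grass. The highest concentrate library lay below the lowest grass library, and steer 1639 had the highest grass value. The means were 45.6 ± 9.07 CPM on concentrate and 107 ± 23.5 CPM on grass (SD, n = 5 each), a log2 difference of −1.23 ± 0.19 (SE, adjusted p = 0.0168). Its 5 within-steer differences ran from −1.76 in steer 1639 to −0.73 in steer 310. The difference kept its sign and size when a steer was left out, but its adjusted p was 0.0680 without steer 860, 0.0897 without steer 1484 and 0.0559 without steer 1639. Without both steers 1484 and 1639 it was −1.05 with an adjusted p of 0.295 over 3 pairs.

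miR-2285av stood at 5.21, 3.16, 4.27, 3.79 and 3.25 CPM on concentrate, against 27.3, 23.5, 17.7, 25.4 and 19.5 CPM on grass. The groups did not overlap and the 5 differences were close together, from −2.81 in steer 310 to −2.0 in steer 860. The means were 3.94 ± 0.839 CPM on concentrate and 22.7 ± 4.01 CPM on grass (SD, n = 5 each). The log2 difference was −2.52 ± 0.19 (SE, adjusted p = 0.000149), and without steers 1484 and 1639 it was −2.38 and still called (adjusted p = 0.0232). The deposited values of this miRNA were fractions, multiples of 1 divided by 8 on concentrate and by 9 on grass. The ratio of these divisors is 0.17 on the log2 scale, and its part in the difference was not tested.

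**Figure D1:**
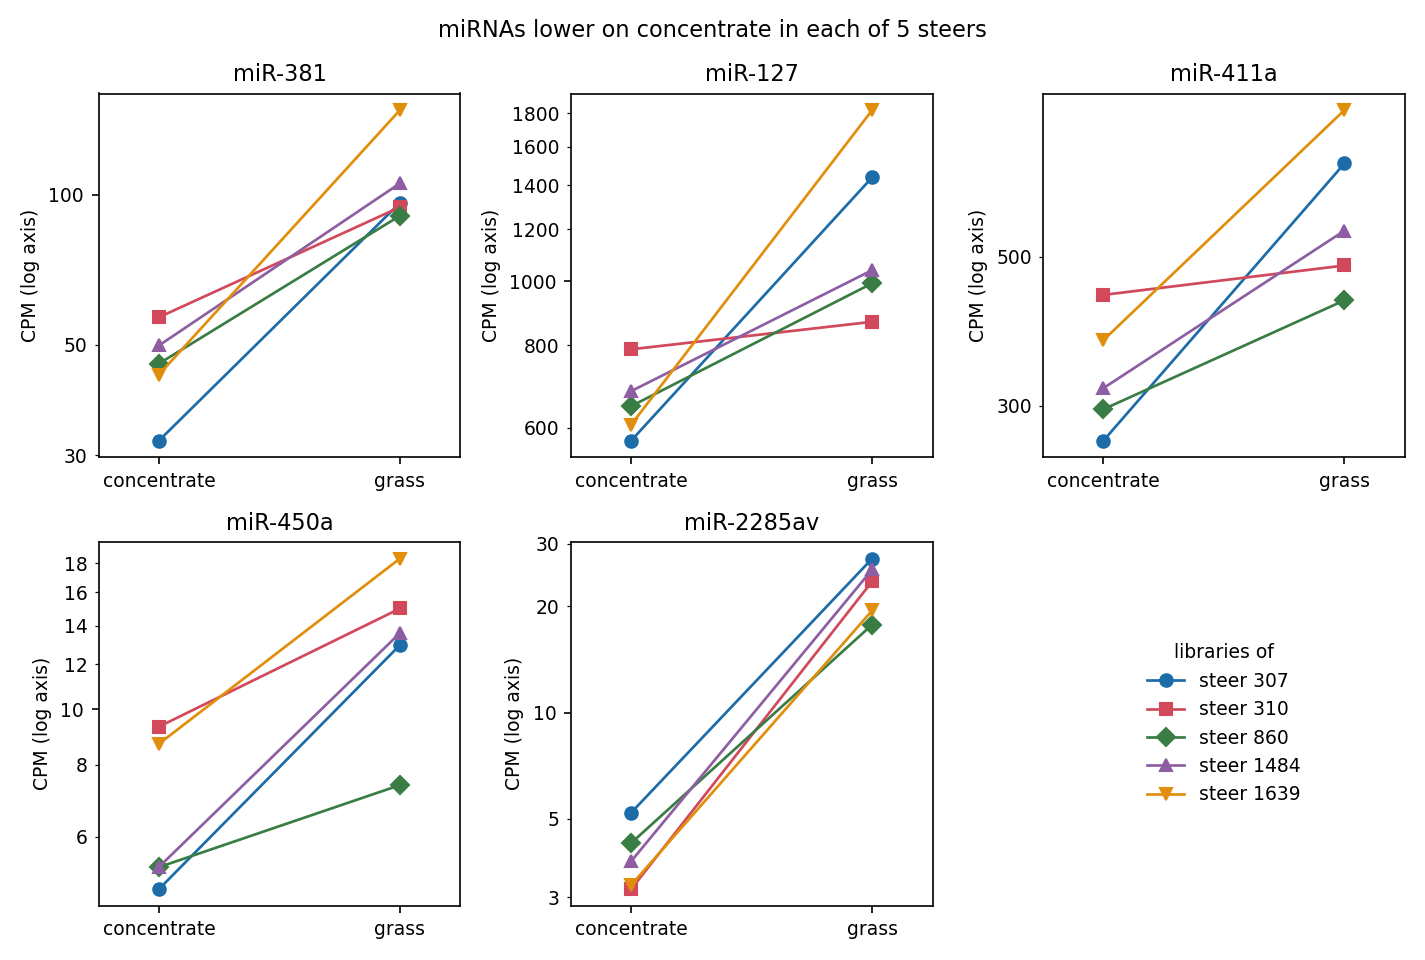
CPM (log axes) of 5 miRNAs in the concentrate library (left) and grass library (right) of each of the 5 steers, with a line joining the libraries of a steer. miR-381 and miR-2285av passed the test, and in all 5 panels every line is lower at its concentrate end.

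Divisors that differed between the phases also touched the miRNAs nearest to a call in the other direction. miR-2284h-5p was at 5.03, 3.32, 4.66, 3.54 and 3.54 CPM on concentrate, against 2.21, 2.05, 1.54, 2.32 and 1.88 CPM on grass. Its log2 difference was 1.00 ± 0.22 (SE, adjusted p = 0.0720), its groups did not overlap, and its divisor was 1 on concentrate and 2 on grass, a ratio of 1 on the log2 scale. For miR-2285g the divisor was 1 on concentrate and 3 on grass, a log2 ratio of 1.58, beside a log2 difference of 0.90 ± 0.19 (SE, adjusted p = 0.0599). Its CPM was 14.1, 13.3, 11.5, 9.87 and 7.09 on concentrate, against 6.48, 7.84, 8.37, 5.48 and 2.75 on grass. Of the 9 tested miRNAs whose divisor differed, 3 were among the 6 smallest p-values. The part of the divisors in these differences was not tested. Over the 28 tested members of the miR-2284 and miR-2285 family, 1 was called lower and 0 higher, 17 lay above 0 and 11 below, and the median was 0.05. Of all 275 miRNAs tested, 126 lay above 0 and 149 below.

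A direction shared by all 5 steers was found for 29 miRNAs lower on concentrate (10.5% of the 275 tested) and 12 higher (4.36%). Concentrate and grass libraries did not overlap for 7 miRNAs with concentrate lower (2.55%) and 3 with concentrate higher (1.09%). The 7 were miR-2285av, miR-381, miR-493, miR-127, miR-877, miR-532 and miR-423-3p, and the 3 were miR-2284h-5p, miR-6120-3p and miR-29b. The names outside the rule for named miRNAs, here and below, were chosen after their values were seen. Among the 29 miRNAs lower in every steer, 11 belonged to the DLK1-DIO3 cluster, 3 to the miR-424 cluster, 2 to the miR-181 family and 2 to the miR-532 cluster. With steers 1484 and 1639 left out, 54 of the 275 were lower in the 3 remaining steers (19.6%) and 35 were higher. A shared direction arises more easily by chance in 3 steers than in 5, so these counts cannot be set against the 29 and 12.

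Most of the DLK1-DIO3 cluster lay lower on concentrate. The table held 58 of its names, of which 5 were at 0 in all 10 libraries and 21 were abundant enough to test. Of these 21, 1 was called lower (miR-381), 12 were lower at an unadjusted p under 0.05 (28 of all 275 were), 20 had a log2 difference below 0, and 11 were lower in 5 of 5 steers (52.4%, against 10.5% of all 275). The median difference was −0.63, beside −0.04 over all 275 miRNAs. Its summed level was 951 to 1402 CPM (median 1124) on concentrate and 1579 to 2979 CPM (median 1849) on grass. Every concentrate library thus lay below every grass library in this sum. miR-127 and miR-411a dominated the sum, averaging 946 and 467 CPM over the 10 libraries, with miR-381 next at 76.3 CPM. In bulk tissue, fewer cells that express these miRNAs and less miRNA per cell cannot be told apart.

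miR-127, which lies antisense to the imprinted gene RTL1, was the most abundant tested member. It stood at 573, 789, 647, 682 and 606 CPM on concentrate, against 1439, 869, 994, 1041 and 1821 CPM on grass. The groups did not overlap, though steer 310 differed by only −0.14, and the log2 difference was −0.86 ± 0.22 (SE, adjusted p = 0.123). miR-411a stood at 266, 439, 296, 319 and 376 CPM on concentrate, against 688, 485, 431, 547 and 827 CPM on grass. It was lower on concentrate within every steer, with one overlap between the groups, where the 439 CPM of steer 310 on concentrate passed the 431 CPM of steer 860 on grass. Its log2 difference was −0.79 ± 0.19 (SE, adjusted p = 0.114). miR-493, at 1.42 to 2.28 CPM on concentrate and 3.07 to 5.64 CPM on grass, differed by −1.10 ± 0.22 (SE, adjusted p = 0.0599).

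Lower values were found on both sides of the cluster. The 5 tested members on the MEG3 side, from miR-493 to miR-136, had a median difference of −0.66, and all 5 were below 0. The 16 on the far side, from miR-379 to miR-410, had a median of −0.61, and 15 were below 0. The exception was miR-494, at 0.03 ± 0.34 (SE), whose differences ran from −0.87 in steer 307 to 1.3 in steer 1484. Gene order was taken from a reference of another build and no positions are given.

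The size of the cluster's difference varied between the steers. Its median within-steer difference was −0.98 in steer 307, −0.14 in steer 310, −0.42 in steer 860, −0.61 in steer 1484 and −0.95 in steer 1639. Steer 310, the one labelled low RFI on both diets, had the smallest difference, and steer 307, the one whose RFI label changed, the largest, but each of those classes is 1 animal. With steers 1484 and 1639 left out the fitted median was −0.47, and 11 of the 21 members were lower in all 3 remaining steers (52.4%, against 19.6% of the 275).

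**Figure D2:**
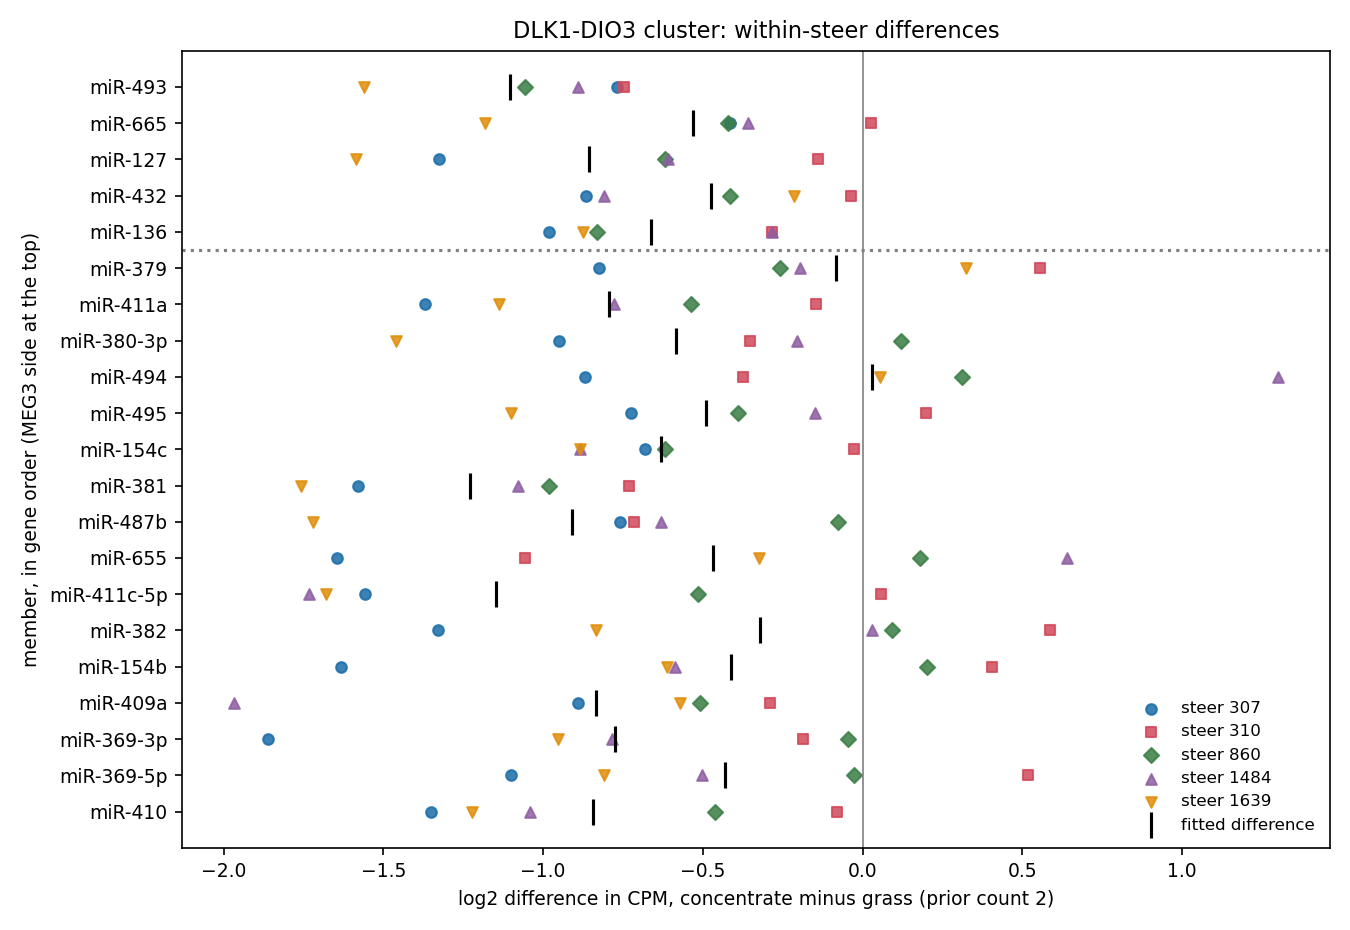
Within-steer log2 differences in CPM (prior count 2) of the 21 tested DLK1-DIO3 members, in gene order with the MEG3 side at the top and a dotted line between the sides; symbols are steers and black bars are the fitted differences. Only the bar of miR-494 lies above 0, and the symbols of steer 310 lie to the right of most others.

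The miR-424 cluster showed the same direction. All 4 tested members were below 0 and passed an unadjusted p of 0.05, as 28 of all 275 did in that direction. None was called, 3 were lower in 5 of 5 steers (75%, against 10.5% of all 275), and the median was −0.65. miR-450a stood at 4.86, 9.33, 5.31, 5.31 and 8.71 CPM on concentrate, against 13.0, 15, 7.38, 13.6 and 18.3 CPM on grass. The groups overlapped through steer 860, which had the lowest grass value, and the log2 difference was −0.99 ± 0.20 (SE, adjusted p = 0.0599). miR-424-5p, with 13.2 to 35.4 CPM on concentrate and 18.8 to 57.2 CPM on grass, differed by −0.66 ± 0.25 (SE, adjusted p = 0.217). miR-450b was lower in 4 of 5 steers, the exception being steer 1639 at 0.11, and differed by −0.64 ± 0.25 (SE, adjusted p = 0.218). The cluster's median was −1.51 in steer 307, −0.38 in steer 310, −0.49 in steer 860, −0.97 in steer 1484 and −0.41 in steer 1639. Left without steers 1484 and 1639 it was −0.73.

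The myomiRs had no call in either direction: 5 of 8 were above 0 (126 of all 275 were), with a median of 0.26. miR-1, which promotes muscle differentiation, stood at 161, 253, 295, 404 and 336 CPM on concentrate, against 157, 217, 221, 263 and 185 CPM on grass. It was higher on concentrate in 5 of 5 steers while the groups overlapped, at a log2 difference of 0.43 ± 0.16 (SE, adjusted p = 0.199). miR-486, the most abundant of them and encoded in an intron of ANK1, differed by 0.31 ± 0.21 (SE, adjusted p = 0.555). miR-133a differed by −0.07 ± 0.22 (SE, adjusted p = 0.923), and miR-133b by 0.21 ± 0.23 (SE, adjusted p = 0.756). miR-208b, carried in the slow myosin gene MYH7, differed by −0.04 ± 0.16 (SE), and miR-499, carried in MYH7B, by −0.04 ± 0.15 (SE). In the fit over all 64 libraries described below, miR-208a and miR-206 had the largest within-steer differences of the 8. These were 1.10 ± 0.59 (SE, adjusted p = 0.481) for miR-208a and 0.51 ± 0.42 (SE, adjusted p = 0.762) for miR-206. The myomiR median lay at −0.40 under total-count scaling, which moved the median of all 275 miRNAs to −0.69, so it stayed above that median but changed sign. Without steers 1484 and 1639 it was 0.14, and without steer 1484 alone 0.11.

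A further 6 lists of function or genomic cluster had medians between −0.29 and 0.09. The miR-181 family, regulators of muscle differentiation in mouse, had all 4 members below 0 with a median of −0.29 and 0 called. The most abundant, miR-181a, differed by −0.26 ± 0.17 (SE, adjusted p = 0.535), with a divisor of 2 on concentrate and 1 on grass. miR-181b, lower on concentrate in every steer, stood at 68.2, 75.6, 52.6, 62.7 and 82.4 CPM on concentrate, against 121, 81.5, 73.6, 94.7 and 110 CPM on grass (log2 difference −0.49 ± 0.15 SE, adjusted p = 0.140). The miR-532 cluster, in introns of CLCN5, which also holds miR-188, miR-362 and miR-660, had a median of −0.06, with 5 of 8 members below 0. Its member miR-532 did not overlap between groups, at 154 to 192 CPM on concentrate and 204 to 314 CPM on grass (−0.45 ± 0.15 SE, adjusted p = 0.172). The lipid metabolism and adipogenesis list had a median of −0.14, with 11 of 15 members below 0, and the myoblast proliferation and quiescence list a median of −0.05, with 10 of 18 below 0. Beside these counts, 149 of all 275 miRNAs lay below 0. The miR-30 family had a median of 0.07 over 6 members, and the miR-29 family, which represses collagens, 0.09 over 5. None of the members of these 6 lists was called in either direction.

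Members of the let-7 family, which favour differentiation over proliferation, had small differences between the diets. Their median was −0.06 over 10 members and 0 were called. let-7i, let-7c and let-7g had the narrowest ranges of within-steer differences among miRNAs averaging 100 CPM or more. let-7i stood at 670, 593, 549, 505 and 597 CPM on concentrate, against 711, 624, 602, 499 and 659 CPM on grass, and no steer differed by more than 0.14 in size on the log2 scale. The fitted difference was −0.08 ± 0.12 (SE, adjusted p = 0.809). let-7f, the most abundant member, differed by −0.07 ± 0.13 (SE, adjusted p = 0.860).

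**Figure D3:**
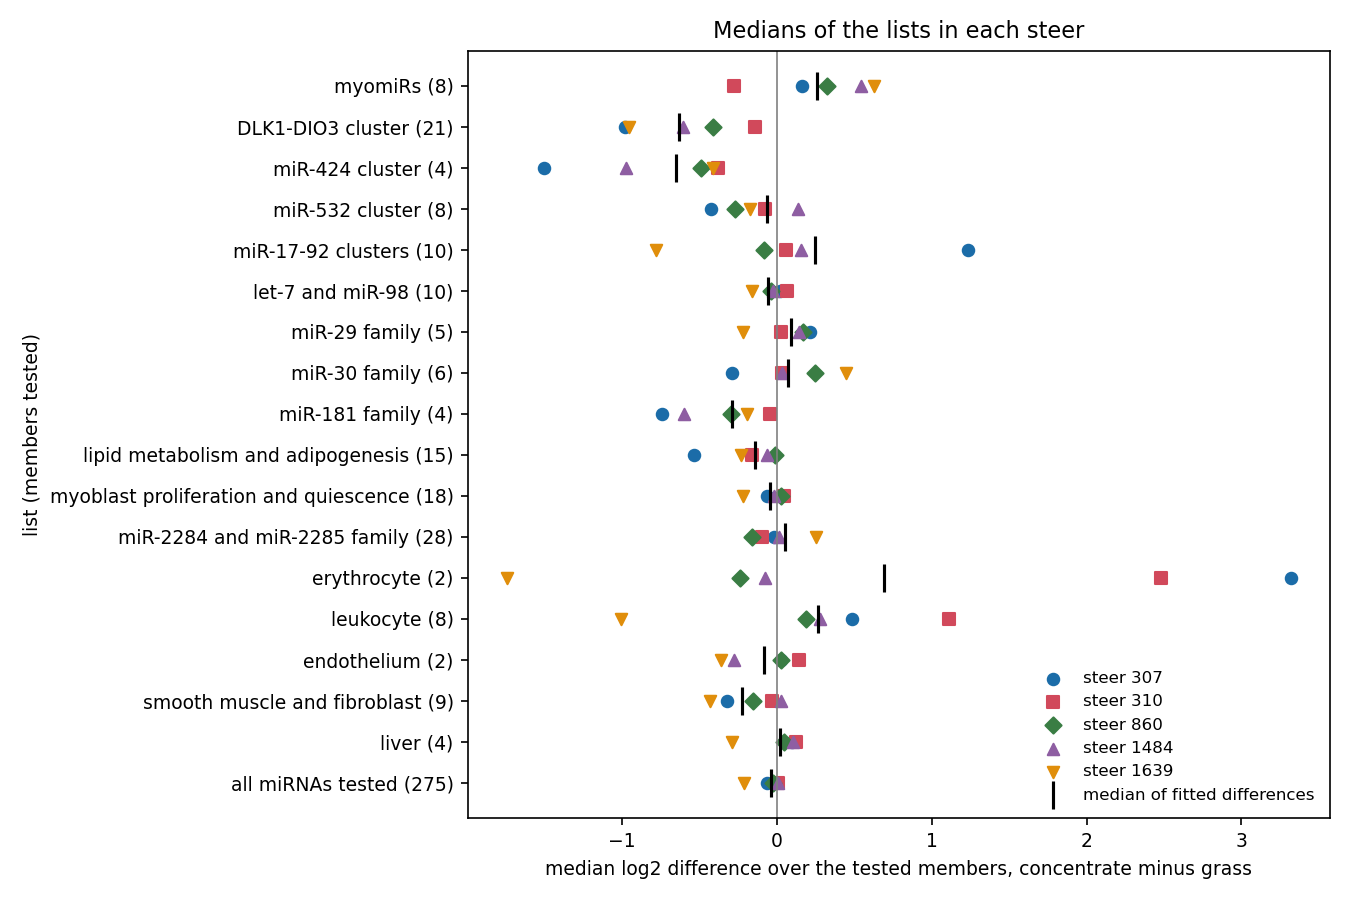
Median log2 difference over the tested members of each list with 2 or more tested members (numbers in brackets), for each steer (symbols) and for the fitted differences (black bars). The DLK1-DIO3 and miR-424 clusters lie below 0 in all 5 steers, the let-7 family and all miRNAs lie close to 0, and the erythrocyte list runs from −1.74 in steer 1639 to 3.32 in steer 307.

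For some abundant miRNAs the within-steer difference varied widely in size or direction. miR-19b, of the miR-17-92 family of growth-promoting clusters, stood at 982, 276, 548, 360 and 412 CPM on concentrate, against 356, 437, 309, 35.3 and 15.7 CPM on grass. It was higher on concentrate in every steer but 310, with the largest differences in steers 1484 (3.34) and 1639 (4.70). The fitted difference was 1.89 ± 0.90 (SE, adjusted p = 0.414), and the divisor was 2 on concentrate and 1 on grass. Without steers 1484 and 1639 the difference of miR-19b was 0.60. miR-145, known from smooth muscle, stood at 1435, 949, 1099, 919 and 1213 CPM on concentrate, against 1073, 1422, 815, 173 and 123 CPM on grass. The same pair of grass libraries was low, and the log2 difference was 1.16 ± 0.66 (SE, adjusted p = 0.471), or 0.14 without both steers. Low miR-19b and miR-145 were among the values that set these libraries apart, so leaving them out shrinks both differences by construction. For miR-10b the differences were 0.53, 0.24 and 0.34 in steers 307, 310 and 860, beside 1.90 in steer 1484 and 3.14 in steer 1639, with a fitted 1.19 ± 0.45 (SE, adjusted p = 0.217), or 0.42 without both steers. Over the miR-17-92 clusters the median was 0.25, with 8 of 10 members above 0 and 0 called. It was 0.57 without steers 1484 and 1639 and −0.082 without steer 307, whose own median was 1.23.

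Blood markers changed direction from steer to steer. miR-451, which takes part in the maturation of red blood cells, stood at 18068, 3821, 11143, 633 and 1539 CPM on concentrate, against 2243, 790, 10462, 584 and 3098 CPM on grass. It was far higher on concentrate in steers 307 and 310, nearly level in steers 860 and 1484, and lower in steer 1639. Its fitted difference was 0.86 ± 0.69 (SE, adjusted p = 0.636). miR-142-5p, a marker of white blood cells, stood at 1267, 416, 1021, 285 and 279 CPM on concentrate, against 282, 125, 1163, 221 and 1081 CPM on grass (0.46 ± 0.67 SE, adjusted p = 0.809). It too was higher on concentrate in steers 307 and 310 and lower in steer 1639. The erythrocyte markers miR-451 and miR-144 summed to 644 to 18238 CPM on concentrate and 596 to 10632 CPM on grass. The 8 leukocyte markers summed to 515 to 1575 CPM on concentrate and 288 to 1528 CPM on grass, with 6 of 8 above 0 and a median of 0.27. Both lists depended on which steers were included. The erythrocyte median was 0.69 over all 5 steers, 0.031 without steer 307 and 1.94 without steers 1484 and 1639. The leukocyte median was −0.014 without steer 310, 0.55 without steer 1639 and 0.92 without steers 1484 and 1639.

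The smooth muscle and fibroblast list had a median of −0.23 over 9 members and summed to 25387 to 31940 CPM on concentrate and 22118 to 39405 CPM on grass. The endothelial pair of miR-126 arms had a median of −0.09, and the 4 tested liver markers 0.02. miR-141, the only tested epithelial marker, differed by −0.54 ± 0.28 (SE), and miR-9-5p, the only tested nerve marker, by −0.32 ± 0.42 (SE), both near 1 to 3 CPM. None of the cell-type markers was called. The part of the blood markers in the differences of other miRNAs was not tested.

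**Figure D4:**
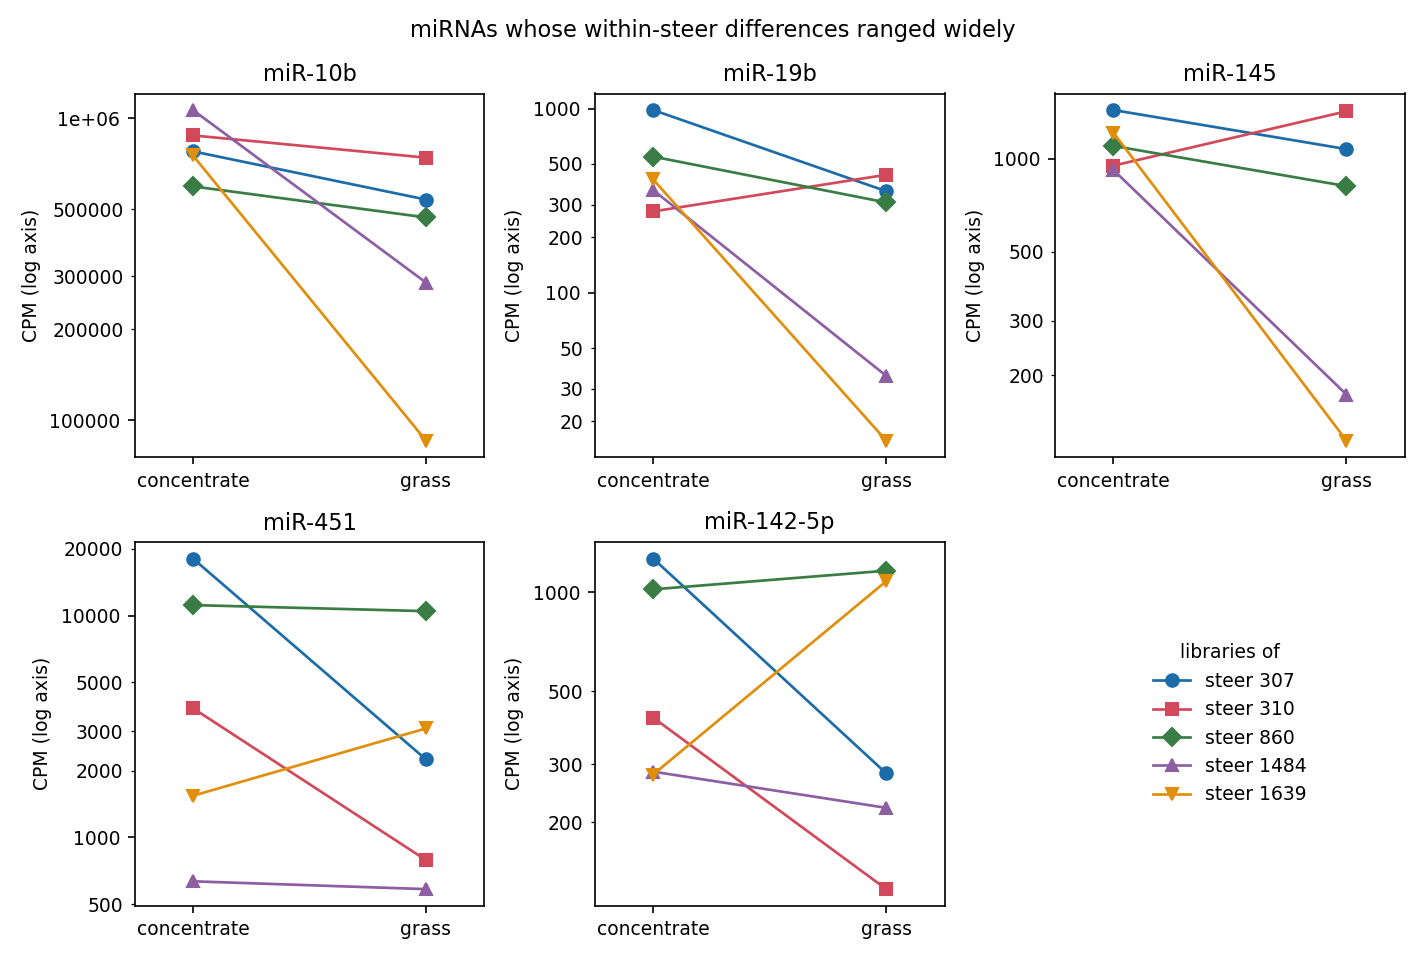
CPM (log axes) of 5 miRNAs in the concentrate library (left) and grass library (right) of each of the 5 steers, with a line joining the libraries of a steer. In the upper panels the grass libraries of steers 1484 and 1639 are the lowest points, while in the miR-451 and miR-142-5p panels the lines slope both ways.

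Pairing removed only part of the spread between libraries. The SD of the 5 within-steer differences was a median of 0.835 times the SD expected from the spread between steers on each diet (quartiles 0.679 and 0.987), and below that expectation for 213 of 275 miRNAs. The median standard error of the diet difference was 0.212 with the steer as a block and 0.249 without. Once the diet means were removed, the 2 libraries of a steer correlated across miRNAs at 0.697 in steer 860 and 0.460 in steer 1484, but at 0.240 in steer 310, 0.134 in steer 307 and −0.0248 in steer 1639. For 4 of 10 libraries, those of steers 860 and 1484, the most similar library on the other diet was that of the same steer. Each library had only 5 candidates on the other diet, so some such matches arise by chance. Without the block 5 miRNAs were called, 4 lower (miR-2285av, miR-381, miR-127 and miR-493) and 1 higher (miR-2284h-5p).

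The steers sampled once gave the same contrast from separate animals. In 1 fit over all 64 libraries, with 318 miRNAs tested, the once-sampled steers gave 49 miRNAs lower on concentrate (15.4%) and 51 higher (16.0%). Under total-count scaling that split became 58 lower and 6 higher. With the spread shared over the 64 libraries, the within-steer term gave 6 lower (1.89%) and 2 higher (0.629%). The 6 were miR-127, miR-2285av, miR-381, miR-411a, miR-411c-5p and miR-493, and the 2 were miR-2284h-5p and miR-2285g. All 8 were also called in the once-sampled steers, which is 100% of the within-steer calls and 8% of the once-sampled calls. Among them, miR-2285av, miR-2284h-5p and miR-2285g had divisors that differed between the phases. The once-sampled grass libraries were also all from the earlier phase, and the concentrate libraries from the later. Diet and phase cannot be told apart there either. miR-381 differed by −1.18 ± 0.29 (SE) within steers and −1.18 ± 0.12 (SE) in once-sampled steers, and miR-127 by −0.80 ± 0.23 (SE) within steers and −0.79 ± 0.10 (SE) in once-sampled steers. The median standard error was 0.295 within steers and 0.125 in once-sampled steers, over the 318 miRNAs of this fit.

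Most miRNAs called in the once-sampled steers leaned the same way within the pairs. Of 45 called lower, 40 were below 0 within steers, with a median of −0.43 within steers and −0.58 in once-sampled steers. Of 45 called higher, 39 were above 0 within steers, with a median of 0.29 within steers and 0.44 in once-sampled steers. Across the 275 miRNAs the 2 sets of differences had a Pearson r of 0.693 and a Spearman rho of 0.658, which is a description, since miRNAs of the same libraries are not independent and share scaling. For the DLK1-DIO3 cluster 23 of 26 tested members were called lower in the once-sampled steers, with a median of −0.76. For the miR-424 cluster it was 5 of 5, with a median of −0.97, beside 49 of all 318 (15.4%).

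No miRNA was called for a difference between the paired and the once-sampled steers (0 of 318, 0%), while 12 had an unadjusted p under 0.05. limma-voom called 0 as well, with 13 at an unadjusted p under 0.05. Under total-count scaling 0 were called, but 53 had an unadjusted p under 0.05 and the smallest adjusted p was 0.258. Against the once-sampled Charolais alone 0 were called, with 8 at an unadjusted p under 0.05. The smallest p belonged to miR-128, at 0.24 ± 0.24 (SE) within steers and −0.47 ± 0.10 (SE) in once-sampled steers, a difference of 0.71 ± 0.26 (SE, adjusted p = 0.999). miR-128 stood at 378, 287, 240, 462 and 308 CPM on concentrate, against 260, 341, 214, 301 and 342 CPM on grass, with 3 steers higher and 2 lower. Next came miR-1271, with −0.51 ± 0.29 (SE) within steers and 0.32 ± 0.13 (SE) in once-sampled steers, a difference of −0.83 ± 0.32 (SE). miR-365-5p, lowest of all 64 libraries in the grass library of steer 1639, differed by 1.11 ± 0.36 (SE) within steers and 0.14 ± 0.15 (SE) in once-sampled steers, a difference of 0.97 ± 0.38 (SE). Its fitted difference in the paired test was 1.06 ± 0.36 (SE), or 0.52 without steers 1484 and 1639. A p that misses the threshold does not show that the paired and once-sampled steers responded alike.

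**Figure D5:**
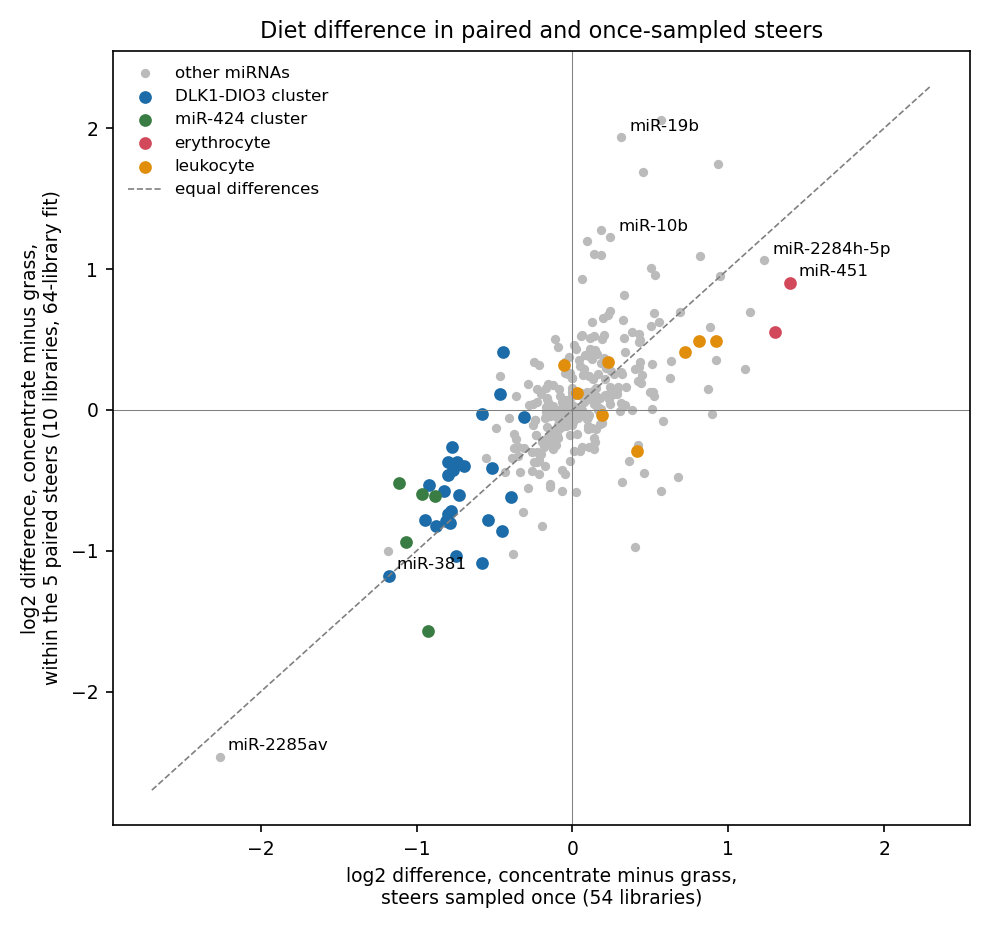
Log2 difference, concentrate minus grass, of 318 miRNAs within the 5 paired steers (vertical) against the steers sampled once (horizontal), both from the fit over 64 libraries, with 4 lists coloured. The DLK1-DIO3 and miR-424 members gather in the lower left, miR-2285av is lowest in both, and miR-19b and miR-10b lie above the line of equal differences.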

How the data were processed

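Per the labels' protocols, a Qiagen RNeasy Plus Universal kit purified the muscle RNA and an Illumina TruSeq stranded RNA kit made the libraries. The build ARS-UCD1.2 and the tools edgeR 3.5, R 3.4, cutadapt 2.6 and FastQC 0.11.8 are named, with no role for each, per the submitters' processing notes. No aligner or counter is named there. For 1030 miRNA names and 64 libraries the authors deposited raw estimated counts in 1 table. Values were rounded to whole counts. Of the names, 1 with empty cells (miR-2285b) was left out, 60 held fractions (further than 0.001 from a whole number), and for 17 the divisor (up to 12 tried, within 0.02) differed between the diets, 9 of them tested. No sequence is given, since no table of miRNA sequences was used here.

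The 10 libraries were filtered with filterByExpr, which kept 275 names (338 were at 0 in all 10, and those left out held 0.0102% of the counts), scaled by TMM and tested with edgeR 4.0.16 in R 4.3.3 (robust quasi-likelihood, steer as a fixed block, Benjamini-Hochberg over all 275, threshold 0.05). For single-steer differences a prior count of 2 was added before log2. The joint fit held 8 group means of once-sampled steers, 5 steer intercepts and 1 within-steer diet term. Adjusted p-values are from edgeR unless limma-voom (limma 3.58.1) or DESeq2 1.42.0 is named. The labels' animal numbers pair the libraries, and the correlations of the pairs are in the report. No libraries were copies of each other: the closest pair had a chi-square of 215 per degree of freedom. A total of 19 lists (12 of function or genomic cluster, 7 of cell type) was described by counts and medians.

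Named miRNAs were up to 12 called in each direction, averaging 10 CPM or more and moving alike in 5 of 5 steers, then the 3 most abundant tested members of each list, the 5 most abundant miRNAs, the 3 smallest p for paired minus once-sampled, and the 3 widest and 3 narrowest ranges of within-steer difference at 100 CPM or more. The members, lists and rules were chosen with earlier results of these data known. Alternatives were no block, other scalings (total counts, RLE, upper quartile), other filters, leaving out fractional names or miR-10b, limma-voom, DESeq2 and each steer left out. Leaving out steers 1484 and 1639 together was added after seeing the data.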

Additional observations from a re-analysis of the deposited data

Results flagged for a closer look

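Among the 56 named miRNAs, 2 had a steer whose difference stood far from the other 4, where chance alone gives about 5%. For miR-29a, steer 1639 differed by −0.36 on the log2 scale, while the other steers lay between 0.03 and 0.14. For miR-502a, steer 1484 differed by −1.22, while the other steers lay between −0.33 and −0.06.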

How the results depend on the processing

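The 2 calls within steers became 5 with no replicate block, 10 with DESeq2, 30 with total-count scaling (28 lower), 5 with upper-quartile factors, 17 of 691 with no filter on low counts, 1 of 236 without fractional names and 8 with the spread shared over 64 libraries. Leaving out each steer gave 1 to 2 calls, with 1 without steer 860, 1484 or 1639, and 1 without both of the last. miR-2285av was called in 16 of 16 alternatives that kept it, miR-381 in 13 of 17, and miR-127, miR-411a and miR-450a each in 5 of 17. The 100 calls of the once-sampled steers became 64 under total-count scaling (58 lower). miRNAs lower in 5 of 5 steers numbered 116 under total-count scaling and 18 of 170 at a mean of 10 CPM or more, against 29. Those higher in 5 of 5 numbered 1 under total-count scaling and 20 with RLE factors, against 12. Paired minus once-sampled gave 0 calls in each alternative run. Total-count scaling moved the median of all miRNAs to −0.69 and turned miR-486 (−0.34), miR-502b (−0.31), miR-29d-5p (−0.14), miR-30e-5p (−0.40), miR-30d (−0.44), miR-885 (−0.39) and miR-128 (−0.46) below 0; miR-502b also turned, to −0.084, without steers 1484 and 1639. A sign change smaller than the standard error was not counted. Names removed by the filter held 0.0102% of the counts, too few for a firm statement on most of them.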

Other observations

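In the grass libraries that stood apart, some miRNAs encoded beside the low ones were not low. miR-145 and miR-143 come from a common transcript. In steers 1484 and 1639 miR-145 was at 919 and 1213 CPM on concentrate, against 173 and 123 CPM on grass. miR-143 in the same libraries was at 24905 and 27475 CPM on concentrate, against 20122 and 32249 CPM on grass. miR-19b and miR-92a belong to the same clusters. miR-92a was at 562 and 453 CPM on concentrate in these steers, against 596 and 833 CPM on grass, while miR-19b was at 360 and 412 CPM on concentrate, against 35.3 and 15.7 CPM on grass. miR-19a was at 52.9 and 59.0 CPM on concentrate, against 5.41 and 2.17 CPM on grass. These miRNAs were chosen after their values were seen, and the cause was not tested.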
